A study of Mus musculus with 12 samples.

Results

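Transcripts of 10 genes of the FGF-ERK pathway were counted in mESCs, embryonic stem cells of the mouse: the ligand gene *Fgf4*, the immediate early genes *Egr1*, *Fos* and *Ier2*, and the feedback genes *Dusp6*, *Spry2*, *Spry4*, *Spred1*, *Etv4* and *Etv5*. These 10, of the 54146 genes in each library, were taken by symbol as a set of the pathway's ligand and its known outputs, and all 10 were found. The choice was made with earlier results of these data known. The cells were of strain C57BL/6 and genotype Prdm10F/F; Rosa26-CreERT2, so that every group carried floxed *Prdm10* alleles and a Cre recombinase which acts only once 4-hydroxytamoxifen (OHT) binds its oestrogen receptor part. Cells were exposed for 24 h to 50 nM OHT, after which the labels give the genotype as Prdm10del/del, or to the same volume of ethanol (EtOH), which leaves the floxed alleles in place. No group with OHT but without floxed alleles was analysed here, so that effects of OHT and Cre and effects of the deletion cannot be told apart. RNA was taken at Day 2 and Day 4, giving 4 groups of 3 libraries (Day 2 EtOH, Day 2 OHT, Day 4 EtOH, Day 4 OHT), all grown on gelatin with serum and LIF. The line had been derived from blastocysts on feeder fibroblasts in a medium that holds a MEK inhibitor, whereas neither is named in the culture conditions given for these libraries. The study's methods describe its experiments in general as independent biological repeats, and the labels do not say which libraries came from separate cultures. The p-values measure the spread between these libraries, part of which may be technical.

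FGF4 is the main FGF that mESCs secrete, and it acts on the same cells through FGF receptors. The receptors switch on RAS, which starts a chain of kinases (RAF, MEK, ERK). Active ERK enters the nucleus and turns on immediate early genes within minutes, and then a set of inhibitors that damp the signal: DUSP6 removes the phosphates from ERK, and the Sprouty and SPRED proteins act upstream of it, on the path to RAS and RAF. *Etv4* and *Etv5* encode transcription factors of the PEA3 group, whose transcripts follow FGF signalling in many tissues. In mESCs this pathway favours exit from the naive state, which LIF helps to maintain. Transcript levels are not a measure of ERK phosphorylation, which was not measured in these libraries.

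Libraries held between 35017667 and 41409992 expected counts (RSEM's estimate of the read pairs that came from genes). All 10 mESC markers, *Pou5f1*, *Sox2* and *Nanog* among them, were above 1 TPM in every group (TPM is a level corrected for gene length, scaled to the same total in each library). Summed TPM of these markers ranged from 2472 to 2954, against at most 3.39 for 8 fibroblast (feeder) markers, 1.90 for 6 primitive endoderm markers and 2.6 for 6 trophectoderm markers. *Prdm10* itself, counted over the whole gene, was at 767 to 821 normalised counts at Day 2 and 821 to 911 at Day 4 in EtOH, and at 2080.2 to 2225 and 1965 to 2089.6 in OHT. This total was higher in the libraries labelled OHT, and a count over the whole gene does not show whether the floxed exon was removed, so that it checks the labels in neither direction. The study states that it checked recombination in this line on DNA, transcript and protein, which were not analysed here.

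In TPM, the 10 genes fell into 3 tiers. *Etv5*, *Fgf4*, *Etv4* and *Ier2* stood highest, between 31.0 and 69.9 TPM as group means. *Spry2*, *Dusp6*, *Spred1* and *Spry4* lay between 7.32 and 33.2 TPM. The immediate early genes *Fos* and *Egr1* were lowest, at 0.42 to 2.35 and 0.457 to 1.12 TPM. At Day 2 *Etv5* led, with 52.7 ± 1.09 TPM (SD, n = 3) in EtOH and 56.6 ± 0.157 in OHT, whereas at Day 4 *Etv4* led, with 68.9 ± 1.76 and 69.9 ± 1.36. Neighbours in this order whose libraries overlapped, and which therefore were not separated by their spread, were *Fgf4* and *Etv4* in both Day 2 groups, *Spred1* and *Dusp6* in both Day 2 groups, *Spry2* and *Dusp6* in Day 2 OHT, *Spred1* and *Spry4* in both Day 4 groups, and *Egr1* and *Fos* in Day 4 OHT. Ranking by normalised count per kilobase of effective length gave the same order in each of the 4 groups. By normalised count the labels overlapped for *Etv5* at Day 2, so that its TPM means on that day are not read as a difference between labels.

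**Figure D1:**
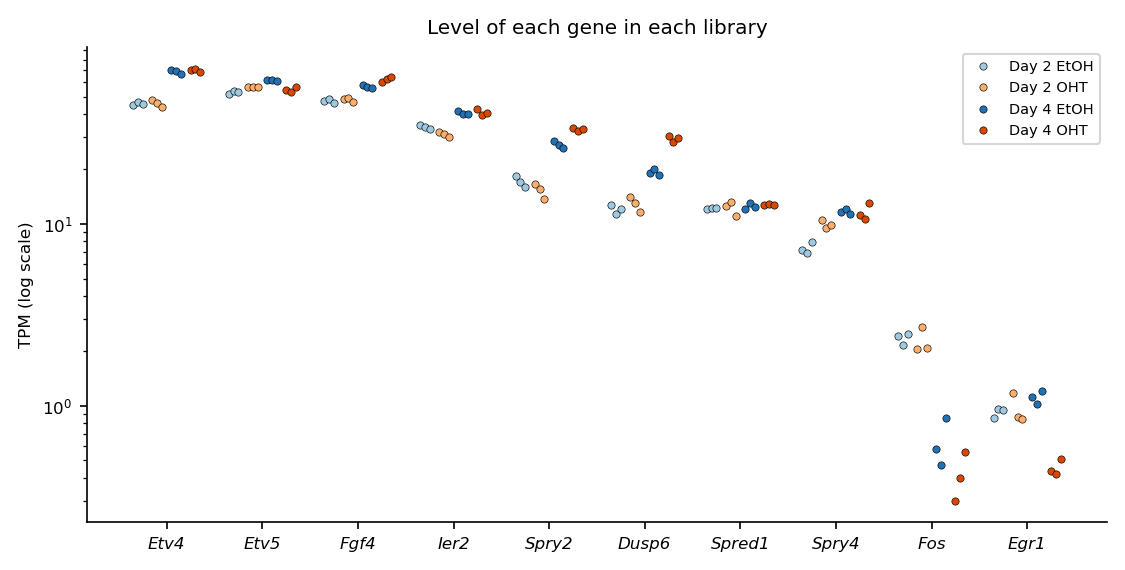
TPM of each gene (log axis) in each of the 12 libraries, coloured by group, with genes ordered by their mean over all libraries. *Fos* drops from a mean of 2.35 TPM at Day 2 to 0.637 TPM at Day 4 in EtOH, and from 2.28 to 0.42 TPM in OHT. *Etv4*, *Spry2* and *Dusp6* stand higher at Day 4 than at Day 2.

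Counts below are normalised counts, scaled by median-of-ratios size factors over all 12 libraries. Fold changes and p-values come from DESeq2 fits of the libraries compared, with Benjamini-Hochberg adjustment over all genes tested. A gene was called where its adjusted p was below 0.05 and its mean normalised count above 100.

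**Figure D2:**
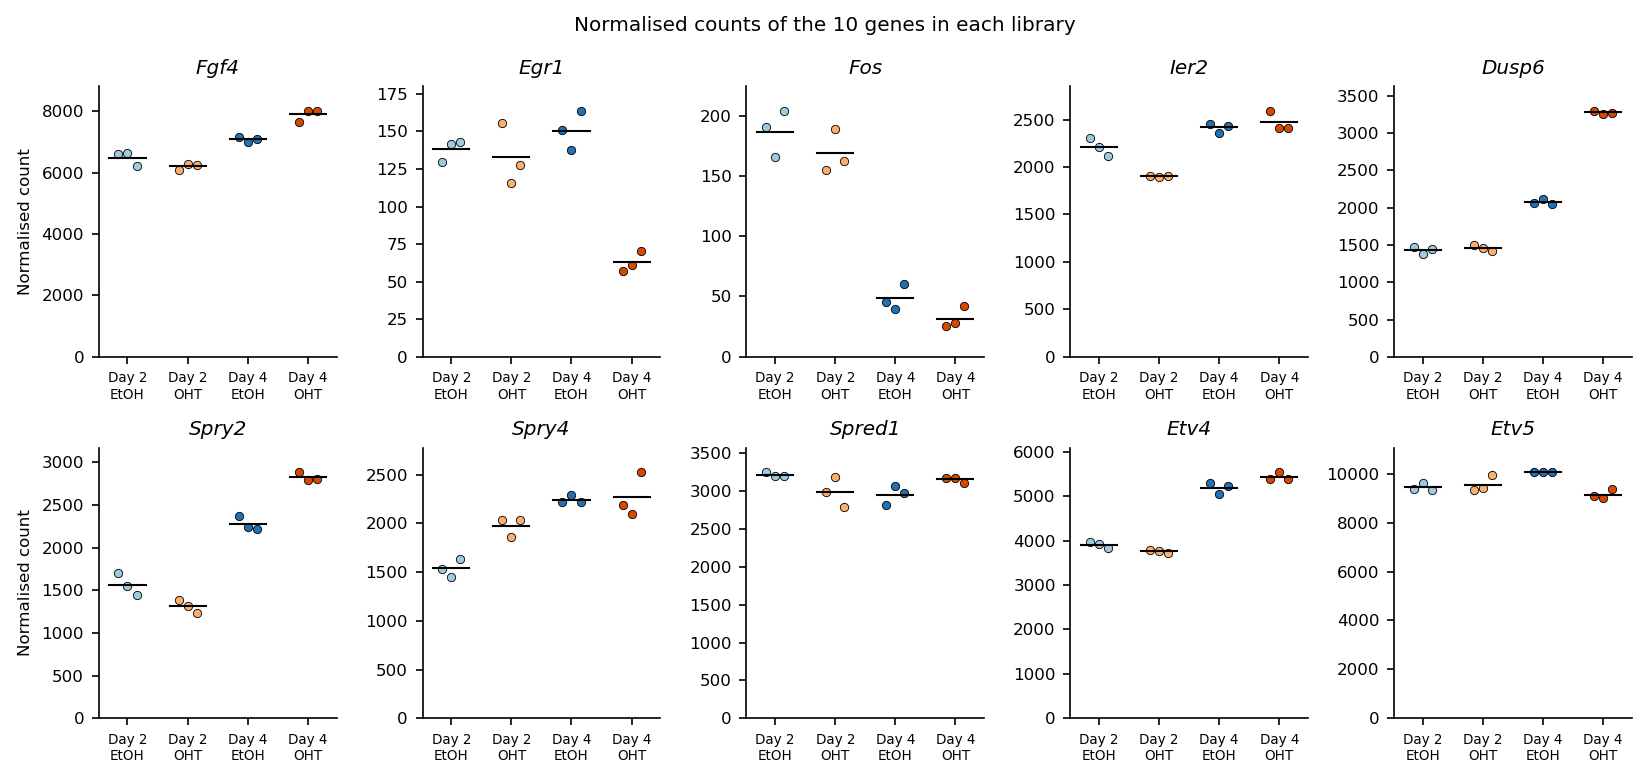
Normalised count (linear axis from 0) of each gene in each library, by group; horizontal lines are group means, n = 3. In Day 4 OHT, *Dusp6*, *Spry2*, *Fgf4* and *Etv4* lie above the range of the other 9 libraries, and *Egr1* lies below it.

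*Fgf4* encodes the ligand. It was at 6599, 6642 and 6228 in Day 2 EtOH and at 6105, 6301 and 6251 in Day 2 OHT, groups that overlapped. At Day 4 it was at 7179.8, 7001 and 7101 in EtOH and at 7671, 8027 and 8018 in OHT. All 3 OHT libraries lay above all 3 EtOH libraries at Day 4. The log2 fold change of OHT over EtOH was -0.06 ± 0.04 (SE) at Day 2 (adjusted p = 0.384) and 0.15 ± 0.03 at Day 4 (adjusted p = 3.75e-05), a rise of 11.3%. Between the days it rose in both labels, by 0.13 ± 0.04 in EtOH (adjusted p = 0.00632, or 0.0595 without Day 2 EtOH replicate 3) and by 0.35 ± 0.04 in OHT (adjusted p = 1.5e-18). The gene lies on chromosome 7 (144847367 to 144865243, sense strand, GRCm38).

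The 3 immediate early genes encode DNA-binding or nuclear proteins that growth factors and serum induce within minutes, and they did not move together. *Egr1*, a zinc finger transcription factor on chromosome 18, was a low-count gene here. It was at 129.6, 142 and 143 in Day 2 EtOH, at 156, 115 and 127 in Day 2 OHT and at 151, 137 and 164 in Day 4 EtOH. In Day 4 OHT it was at 57.3, 61.3 and 70.7, below each of the other 9 libraries. The OHT over EtOH difference at Day 4 was -1.26 ± 0.20 (log2, adjusted p = 5.08e-09), or 0.419 times the EtOH level, with a mean count of 108 just above the minimum, under which it fell without Day 4 EtOH replicate 1 or 3. At Day 2 it was -0.06 ± 0.18 (adjusted p = 0.892), with a 95% confidence interval from -0.41 to 0.29. Of the 8 fibroblast markers, 7 were below 1 TPM in every library. Their summed TPM was 1.07 to 1.62 in Day 4 OHT, against 2.39 to 3.22 in Day 4 EtOH, and most of that difference came from *Thy1* (mean 0.777 against 2.18 TPM, named after its values were seen). *Lum* was at 0 in all 3 libraries of Day 2 EtOH and of Day 4 OHT, and *Dcn* in those of Day 2 OHT. The part of these markers in the *Egr1* difference was not tested. In bulk RNA, fewer cells that express a gene and less RNA per cell cannot be told apart.

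*Fos* encodes a subunit of AP-1 and lies on chromosome 12 (85473890 to 85477273, sense strand). It was at 190.1, 166 and 204 in Day 2 EtOH and at 155, 189 and 162 in Day 2 OHT. By Day 4 it was at 45.4, 39.5 and 60.7 in EtOH and at 25.7, 27.7 and 41.8 in OHT. Every Day 4 library was below every Day 2 library, whereas OHT and EtOH overlapped on both days. From Day 2 to Day 4 *Fos* fell by 1.94 ± 0.21 (log2, adjusted p = 3.15e-18) in EtOH, to 0.26 times its Day 2 level. In OHT it fell by 2.40 ± 0.24 (adjusted p = 1.13e-22), to 0.189 times that level. This was the largest change between the days among the 10 genes, in both labels. The OHT over EtOH difference was -0.14 ± 0.16 at Day 2 (adjusted p = 0.624) and -0.61 ± 0.33 at Day 4 (adjusted p = 0.151). At Day 4 its mean count was 40.5, under the minimum, so that no difference could be called, whatever its size. Fitting all 12 libraries together gave -0.61 ± 0.24 and an adjusted p of 0.0365 for the same difference. The mean count over these 12 was 109, above the minimum, so that *Fos* was called in this 1 of 15 alternatives.

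*Fos* and *Etv5* were the 2 members on the list of genes bound by PRDM10 in ChIP-seq of mESCs. Of the 54146 genes in each library, 627 are on it, and the share among expressed genes was not taken. The study assigned peaks along the gene body and its flanks, so that a listed gene need not have its peak in the promoter. The upstream sequence of *Fos* is shown because it is the member that differed most between the days and is on that list, beside that of *Dusp6*, the member with the smallest adjusted p between labels at Day 4. Each run covers the 250 bases before the RefSeq start site on the sense strand (GRCm38.p6), chr12:85473640-85473889 for *Fos* and chr10:99262981-99263230 for *Dusp6*. Capitals mark matches to the motifs below.
Fos: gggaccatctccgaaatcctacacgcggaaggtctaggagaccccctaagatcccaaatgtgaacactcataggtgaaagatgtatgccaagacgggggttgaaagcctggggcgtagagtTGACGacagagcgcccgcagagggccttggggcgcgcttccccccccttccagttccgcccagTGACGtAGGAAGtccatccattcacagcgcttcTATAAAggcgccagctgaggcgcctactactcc
Dusp6: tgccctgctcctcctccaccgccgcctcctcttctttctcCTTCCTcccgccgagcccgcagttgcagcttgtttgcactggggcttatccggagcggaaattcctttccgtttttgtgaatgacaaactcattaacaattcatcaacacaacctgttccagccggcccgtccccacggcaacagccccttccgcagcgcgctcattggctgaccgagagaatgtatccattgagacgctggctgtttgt

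Motifs were searched on both strands: the CRE core TGACG, the PEA3 site AGGAAG, the ETS site CCGGAAG, the AP-1 site TGANTCA and the TATA box TATAAA. The CArG box was searched as CC, then 6 bases that are each A or T, then GG. Sites more than 250 bases before a start were outside the windows. Counting back from -1 at the base before the start, *Fos* held TGACG from -129 to -125 and from -66 to -62, AGGAAG from -60 to -55 and TATAAA from -33 to -28. In *Dusp6* the match was AGGAAG on the antisense strand, read as CTTCCT, from -210 to -205. Among all 32851 promoter windows of RefSeq, each reaching 250 bases before and 50 after a start, TGACG was found in 20.8%, AGGAAG in 35.4%, TATAAA in 13.6%, CCGGAAG in 8.86%, TGANTCA in 7.81% and the CArG box in 1.63%. Windows were given for 6 of the 10 members (*Fgf4*, *Fos*, *Dusp6*, *Spry2*, *Spred1* and *Etv5*), and the other 4 of these had no match before their start sites. In 1 of the 2 windows of *Etv5*, AGGAAG was found just after the start. A double-stranded probe designed for binding assays with PRDM10 read as follows, with capitals on the 11 bases replaced in its mutant form.
Probe: ctggcacagTGGTCGCGCCCggcccgcc
The best match to those 11 bases in the *Fos* window had 7 of them, and 90.0% of all windows had a match at least as close. *Fgf4* and 1 of the 2 windows of *Etv5* had a match of 9 bases, as 10.4% of all windows did or better. *Spred1*, *Spry2* and the other window of *Etv5* had 8 (47.2%), and *Dusp6* had 7. These letters are a description of the windows and say nothing about binding.

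*Ier2*, a small nuclear protein gene (chromosome 8, 84661331 to 84662852, antisense strand), followed neither of the other 2. It was at 2309, 2213 and 2117 in Day 2 EtOH and at 1906, 1889 and 1906 in Day 2 OHT, where the groups did not overlap. At Day 4 it was at 2457, 2359 and 2436 in EtOH and at 2594, 2409.8 and 2414 in OHT, where they did. *Ier2* fell by 14.1% with OHT at Day 2 (log2 fold change -0.22 ± 0.06, adjusted p = 0.00127, or 0.146 with the replicate block and the length trend removed together), and at Day 4 its difference was 0.03 ± 0.05 (adjusted p = 0.699). It rose from Day 2 to Day 4 in OHT (0.38 ± 0.05, adjusted p = 4.61e-12), while in EtOH the difference of 0.12 ± 0.05 missed the threshold (adjusted p = 0.0555) and was called in 6 of 15 alternatives, edgeR among them (adjusted p = 0.018).

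*Dusp6*, the gene of the phosphatase that inactivates ERK, showed the largest rise. It lies on chromosome 10 (99263231 to 99267489, sense strand). At Day 2 it was at 1477, 1382 and 1444 in EtOH and at 1493, 1462 and 1421 in OHT, with the groups overlapping. At Day 4 it was at 2060.2, 2120.4 and 2049 in EtOH and at 3301, 3261 and 3273 in OHT. Both Day 4 groups stood above both Day 2 groups, and OHT stood above EtOH at Day 4 in all 3 libraries. The OHT over EtOH log2 fold change was 0.03 ± 0.06 at Day 2 (adjusted p = 0.850) and 0.66 ± 0.04 at Day 4 (adjusted p = 1.91e-47), that is 1.58 times the EtOH level. Over the same days it rose to 1.45 times its Day 2 level in EtOH (0.53 ± 0.06, adjusted p = 1.08e-19) and to 2.25 times in OHT (1.17 ± 0.05, adjusted p = 2.59e-119).

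The Sprouty and SPRED genes encode membrane-bound inhibitors of the path from receptor to ERK, and each of the 3 had a pattern of its own. *Spry2* (chromosome 14, 105891947 to 105896819, antisense strand) was at 1707, 1554 and 1444 in Day 2 EtOH and at 1393, 1323 and 1235 in Day 2 OHT. In Day 4 EtOH it was at 2369, 2239 and 2219, and in Day 4 OHT at 2886, 2797 and 2806. OHT was below EtOH in all libraries at Day 2 and above it in all at Day 4. The log2 fold change was -0.25 ± 0.07 at Day 2 (adjusted p = 0.006) and 0.31 ± 0.05 at Day 4 (adjusted p = 4.31e-10). In OHT it thus fell by 16.0% at Day 2 and rose by 24.2% at Day 4, each against EtOH. The Day 2 call was lost without Day 2 EtOH replicate 1 (-0.19, adjusted p = 0.13), without Day 2 OHT replicate 3 (-0.21, adjusted p = 0.0531), and with the replicate block and the length trend removed together (-0.22, adjusted p = 0.0686). *Spry2* rose between the days by 0.53 ± 0.06 in EtOH (adjusted p = 1.22e-15) and by 1.11 ± 0.06 in OHT (adjusted p = 1.07e-83).

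*Spry4*, on chromosome 18, was at 1537, 1454 and 1633 in Day 2 EtOH and at 2035, 1861 and 2039 in Day 2 OHT. At Day 4 it was at 2220.2, 2288 and 2218 in EtOH and at 2188, 2096 and 2527 in OHT, a group whose replicate 3 stood apart from the other 2. OHT lay above EtOH in all libraries at Day 2, and the groups overlapped at Day 4. The log2 fold change was 0.36 ± 0.06 at Day 2 (adjusted p = 1.18e-06), 1.28 times the EtOH level, and 0.02 ± 0.06 at Day 4 (adjusted p = 0.889, 95% confidence interval -0.10 to 0.14). From Day 2 to Day 4 it rose by 0.54 ± 0.06 in EtOH (adjusted p = 2.89e-19) and by 0.20 ± 0.07 in OHT (adjusted p = 0.00942). The latter was lost without Day 4 OHT replicate 3 (0.12, adjusted p = 0.166) or Day 2 OHT replicate 2 (0.16, adjusted p = 0.119).

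*Spred1* (chromosome 2, 117121374 to 117182279, sense strand) varied least among the inhibitors. It was at 3253, 3205 and 3204 in Day 2 EtOH, at 2990.0, 3194 and 2795 in Day 2 OHT, at 2824, 3068 and 2979 in Day 4 EtOH and at 3181, 3179 and 3113 in Day 4 OHT. OHT lay below EtOH in all libraries at Day 2 and above it in all at Day 4. Neither difference passed the test (-0.10 ± 0.05, adjusted p = 0.201, and 0.09 ± 0.05, adjusted p = 0.105). With each library's trend on gene length removed, the Day 2 difference was -0.20 ± 0.06 and was called (adjusted p = 0.00545). In EtOH *Spred1* fell by 0.13 ± 0.05 from Day 2 to Day 4 (adjusted p = 0.0298), a call that held in 6 of 15 alternatives. In OHT it differed by 0.08 ± 0.05 (adjusted p = 0.251). With the length trend removed that difference was 0.19 ± 0.05 and was called (adjusted p = 0.00195).

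Of the PEA3 factors, *Etv4* (chromosome 11, 101769742 to 101785371, antisense strand) was called between the days in both labels and between the labels on neither day. It was at 3965, 3924 and 3838 in Day 2 EtOH and at 3791, 3766 and 3709 in Day 2 OHT. At Day 4 it was at 5296, 5042 and 5236 in EtOH and at 5392, 5539 and 5379 in OHT. EtOH and OHT libraries did not overlap within either day, yet the differences were small: -0.06 ± 0.04 at Day 2 (adjusted p = 0.447, 95% confidence interval -0.15 to 0.03) and 0.06 ± 0.04 at Day 4 (adjusted p = 0.18, interval -0.01 to 0.14). It rose to 1.33 times its Day 2 level in EtOH (0.41 ± 0.04, adjusted p = 4.32e-21) and to 1.45 times in OHT (0.54 ± 0.04, adjusted p = 1.07e-38).

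*Etv5* (chromosome 16, 22381309 to 22439719, antisense strand) had the smallest called difference between labels. It was at 9384, 9635 and 9332 in Day 2 EtOH, at 9320.3, 9409.6 and 9938 in Day 2 OHT, at 10059.6, 10066 and 10057 in Day 4 EtOH and at 9072, 9009 and 9361 in Day 4 OHT. OHT lay below EtOH in all libraries at Day 4 and overlapped it at Day 2. The log2 fold change was 0.02 ± 0.04 at Day 2 (adjusted p = 0.856) and -0.14 ± 0.03 at Day 4 (adjusted p = 4.23e-05), where it fell by 9.22%. Between the days it rose in EtOH by 0.09 ± 0.03 (adjusted p = 0.0329), a call that held in 9 of 15 alternatives, and in OHT it differed by -0.06 ± 0.04 (adjusted p = 0.227).

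Counted over the 10 genes, 1 (*Spry4*) was called higher and 2 (*Ier2* and *Spry2*) lower in OHT at Day 2, where 19.8% of the 11642 genes tested were called (9.17% higher and 10.6% lower). Libraries of the labels did not overlap for 5 of the 10, against 45.6% of all genes tested. The split of all calls at Day 2 depended on scaling: 1068 were higher and 1238 lower, against 1389 and 638 with library totals. At Day 4, 3 genes (*Fgf4*, *Dusp6*, *Spry2*) were called higher and 2 (*Egr1*, *Etv5*) lower, of the 9 with a mean count above the minimum. Of the 11552 genes tested at Day 4, 45.1% were called, 23.5% higher and 21.7% lower, and 63.0% did not overlap, as 7 of these 9 did not. Both counts are near the background of their day, so that the share of members called is no result in itself. The median log2 fold change over the members tested was -0.06 at Day 2 and 0.06 at Day 4, beside -0.03 and 0.01 over all genes tested.

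**Figure D3:**
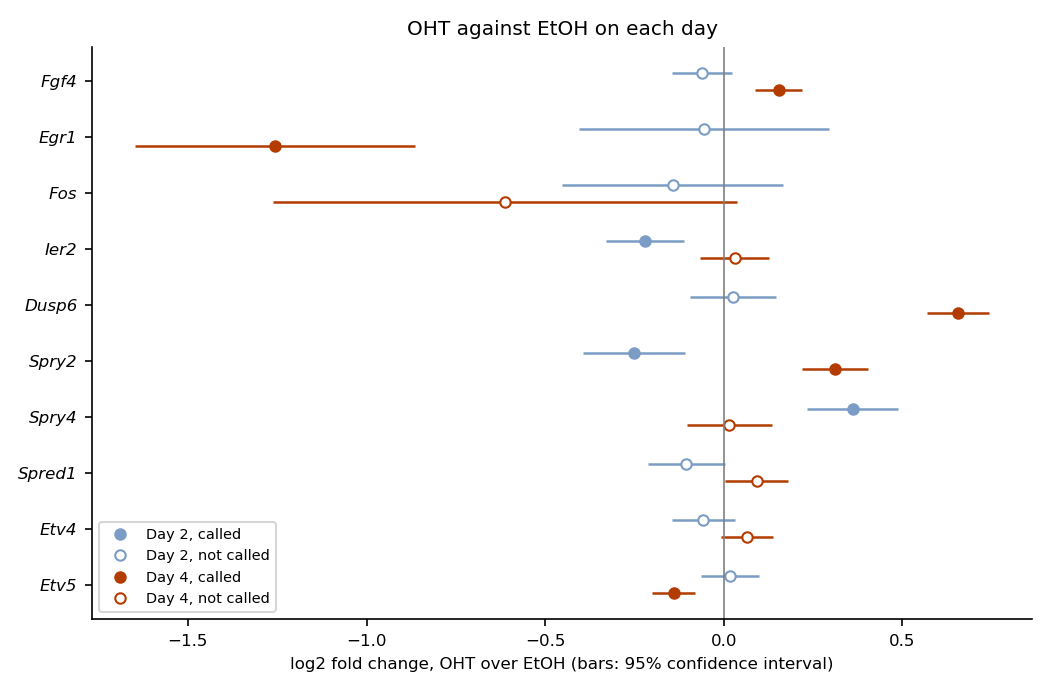
Log2 fold change of OHT over EtOH for each gene at Day 2 and Day 4, with 95% confidence intervals; filled points were called. At Day 4, *Dusp6* at 0.66 and *Egr1* at -1.26 lie farthest from 0 in either direction, and *Spry2* is on opposite sides of 0 on the 2 days.

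From Day 2 to Day 4, 6 of the 10 were called higher and 2 lower in EtOH, where 41.1% of 11570 genes were called (20.6% higher and 20.5% lower). EtOH libraries of the 2 days did not overlap for 9 of the 10, against 59.0% of all genes tested. In OHT, 6 of the 9 above the minimum were called higher and 1 lower, where 53.6% of 11633 were called (30.7% higher and 23.0% lower), and libraries of the 2 days did not overlap for 7 of the 9, against 70.1%. *Egr1* fell by 1.07 ± 0.21 between the days in OHT (adjusted p = 3.67e-06), but its mean of 98.7 was under the minimum and it was not counted. In EtOH it differed by 0.12 ± 0.17 (adjusted p = 0.647). *Dusp6*, *Spry2*, *Spry4*, *Etv4* and *Fgf4* were called higher at Day 4 in both labels, and *Fos* lower in both. Each group of libraries enters both a comparison between labels and one between days, so that these 4 sets of differences are not independent. Day in these libraries is a day of culture after the exposure, and anything else that differed between the harvests cannot be told apart from it.

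**Figure D4:**
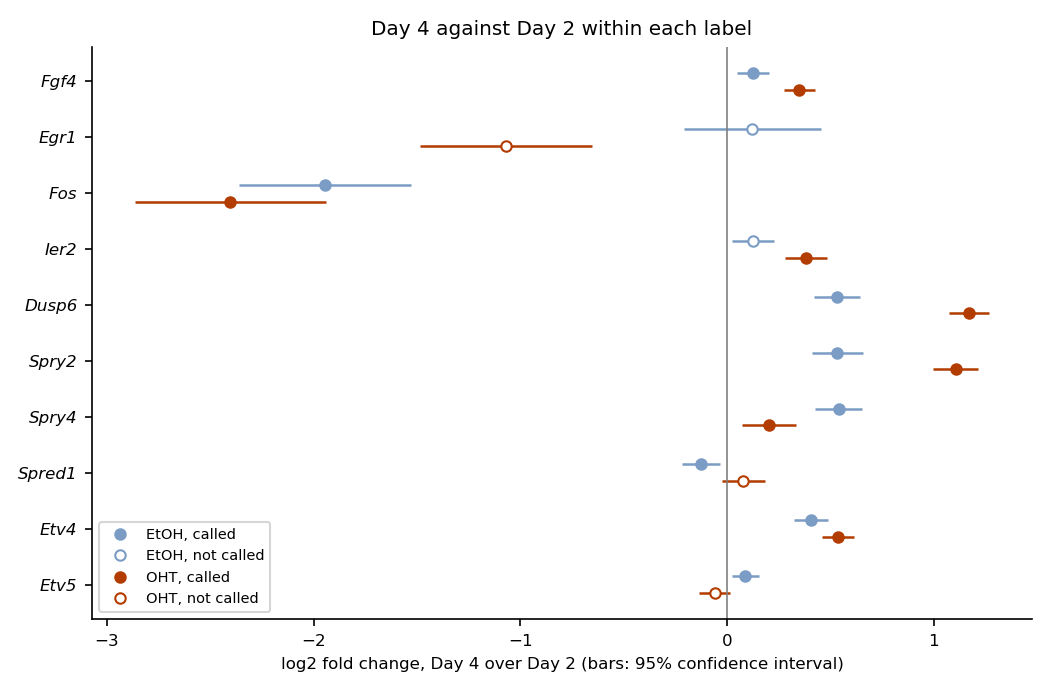
Log2 fold change of Day 4 over Day 2 for each gene within EtOH and within OHT, with 95% confidence intervals; filled points were called. *Fos* is far to the left in both labels (-1.94 and -2.40), and *Dusp6* and *Spry2* lie farther right in OHT (1.17 and 1.11) than in EtOH (0.53 for both).

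The difference between the days in the effect of OHT was tested as an interaction over all 12 libraries. It was called for 9 of the 10 genes, all but *Fos*, where 32.3% of 11612 genes were called. It was positive for 6 of them and negative for 3, against 18.7% and 13.6% of all genes. The members and the tests were chosen with earlier results of these data known, so that the share of members called is no result in itself. With library totals the all-gene split turned from 2175 positive and 1577 negative to 1665 and 2099. *Dusp6* (0.63 ± 0.06, adjusted p = 4.38e-22) and *Spry2* (0.57 ± 0.08, adjusted p = 9.22e-10) had the largest positive terms. The largest negative one was that of *Egr1* (-1.20 ± 0.24, adjusted p = 1.02e-05), followed by *Spry4* (-0.34 ± 0.09, adjusted p = 0.00222). *Spry2* and *Spry4*, which are paralogues, thus had terms of opposite sign: OHT was higher for *Spry4* at Day 2 and for *Spry2* at Day 4. The terms of the others were smaller, at 0.25 ± 0.07 for *Ier2*, 0.22 ± 0.05 for *Fgf4*, 0.20 ± 0.07 for *Spred1*, 0.12 ± 0.05 for *Etv4* and -0.15 ± 0.04 for *Etv5*. The term of *Etv4* was called in 6 of 20 alternatives and that of *Spred1* in 16. For *Fos* it was -0.46 ± 0.30 (adjusted p = 0.284).

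Other genes of the pathway were read from 4 lists. Of 18 other FGF ligands and receptors, 5 were above the minimum at Day 4 and 0 of these were called in OHT by DESeq2, while 1 was higher and 1 lower at an unadjusted p under 0.05, and edgeR called 2 higher and 1 lower. Over all genes tested, 23.5% were higher and 21.7% lower at Day 4, and 9.17% and 10.6% at Day 2. At Day 2, 1 of 5 was called higher. It was *Fgfr1*, a receptor of FGF4, with a log2 fold change of 0.30 (named after its values were seen). At Day 4 *Fgfr1* differed by -0.11 (adjusted p = 0.2) and its libraries overlapped, but it was called lower with effective length offsets (-0.35) and without Day 4 OHT replicate 3 (-0.20).

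The cascade itself, 26 of 27 genes tested from adaptors to kinases and ERK's nuclear targets, had 5 called higher and 2 lower in OHT at Day 2, and 2 higher and 8 lower at Day 4 (5 and 10 by edgeR). Over all genes tested, 9.17% were higher and 10.6% lower at Day 2, and 23.5% and 21.7% at Day 4. The median was 0.00 at Day 2 and -0.05 at Day 4. The genes of both MEK kinases were the 2 higher ones at Day 4, *Map2k2* with means of 3249 in OHT and 2699 in EtOH (0.27 ± 0.04, adjusted p = 1.26e-08) and *Map2k1* with 4790.0 and 4264 (0.17 ± 0.04, adjusted p = 0.000168). At Day 2 *Map2k1* was called lower in OHT (-0.12, adjusted p = 0.0359), which held in 4 of 15 alternatives. The lowest 3 were *Elk4*, an ETS partner of SRF (567 against 769, -0.44 ± 0.08, adjusted p = 3.95e-07), the adaptor *Gab1* (4681 against 6338, -0.44 ± 0.05, adjusted p = 1.63e-19) and *Frs2*, which couples FGF receptors to RAS (618 against 795, -0.36 ± 0.09, adjusted p = 0.000663). *Frs2* and *Gab1* had been higher in OHT at Day 2, by 0.53 ± 0.10 (adjusted p = 1.39e-06) and 0.21 ± 0.06 (adjusted p = 0.00397), the latter a call that held in 12 of 15 alternatives. The interaction was called for both, at -0.89 ± 0.15 and -0.65 ± 0.08.

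Among 23 other immediate early genes, 16 were tested at Day 4, of which 8 were called higher and 1 lower in OHT (8 and 2 by edgeR), with a median of 0.14. Over all genes tested, 23.5% were higher and 21.7% lower at Day 4. At Day 2, 2 of 18 were higher and 3 lower, against 9.17% and 10.6% of all genes tested. *Ccn1* and *Ccn2*, secreted matrix proteins that serum also induces, had means of 681 against 398 (0.77 ± 0.09, adjusted p = 1.02e-15) and 956 against 563 (0.76 ± 0.08, adjusted p = 1.97e-18) at Day 4. *Jun*, whose protein pairs with FOS, was at 231 in OHT against 135 in EtOH (0.77 ± 0.15, adjusted p = 2.2e-06), after being lower in OHT at Day 2 (322 against 404, -0.33 ± 0.12, adjusted p = 0.034), a call that held in 6 of 15 alternatives. *Jun* had the opposite direction to *Egr1* at Day 4. *Myc* was the 1 gene called lower by DESeq2, at 792 against 1013 (-0.36 ± 0.07, adjusted p = 7.29e-06). Falls were also seen under the minimum mean count, where genes were not counted. *Atf3* (-1.21 ± 0.26, adjusted p = 2.965e-05) and *Fosl2* (-1.15 ± 0.34, adjusted p = 0.00367) were lower in OHT at Day 4, without overlap of libraries. *Fosb* was the listed gene under the minimum with a value above 0 (0.29 ± 0.52, adjusted p = 0.736). *Atf3*, *Fosl2* and *Fosb* were named after their values were seen.

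Of 17 other feedback and target genes, 6 of 14 tested were called higher and 3 lower in OHT at Day 4, and 4 of 13 higher and 0 lower at Day 2 by DESeq2, where 1 was lower at an unadjusted p under 0.05 and edgeR called 0 lower. The shares over all genes were 23.5% higher and 21.7% lower at Day 4, and 9.17% and 10.6% at Day 2. *Dusp4*, a nuclear ERK phosphatase, rose the most, with means of 1275 in OHT and 659 in EtOH (0.95 ± 0.07, adjusted p = 4.32e-42). *Spred3* (187 against 101, 0.89 ± 0.17, adjusted p = 3.14e-06) and *Dusp1*, a phosphatase of several MAP kinases (373 against 217, 0.78 ± 0.13, adjusted p = 4.38e-08), followed. *Spred2* was lower at Day 4 (679.6 against 898, -0.40 ± 0.08, adjusted p = 1.23e-05) and higher at Day 2 (0.37 ± 0.08, adjusted p = 0.000203). *Nf1*, the gene of a protein that turns RAS off, was lower at Day 4 (-0.30 ± 0.12, adjusted p = 0.0408) and higher at Day 2 (0.47 ± 0.14, adjusted p = 0.00711), calls that held in 8 and 12 of 15 alternatives. *Ccnd1* was lower at Day 4 (-0.17 ± 0.04, adjusted p = 0.000326). The feedback genes thus moved both ways in the same Day 4 libraries, *Dusp4*, *Dusp6* and *Spry2* higher and *Spred2* lower.

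**Figure D5:**
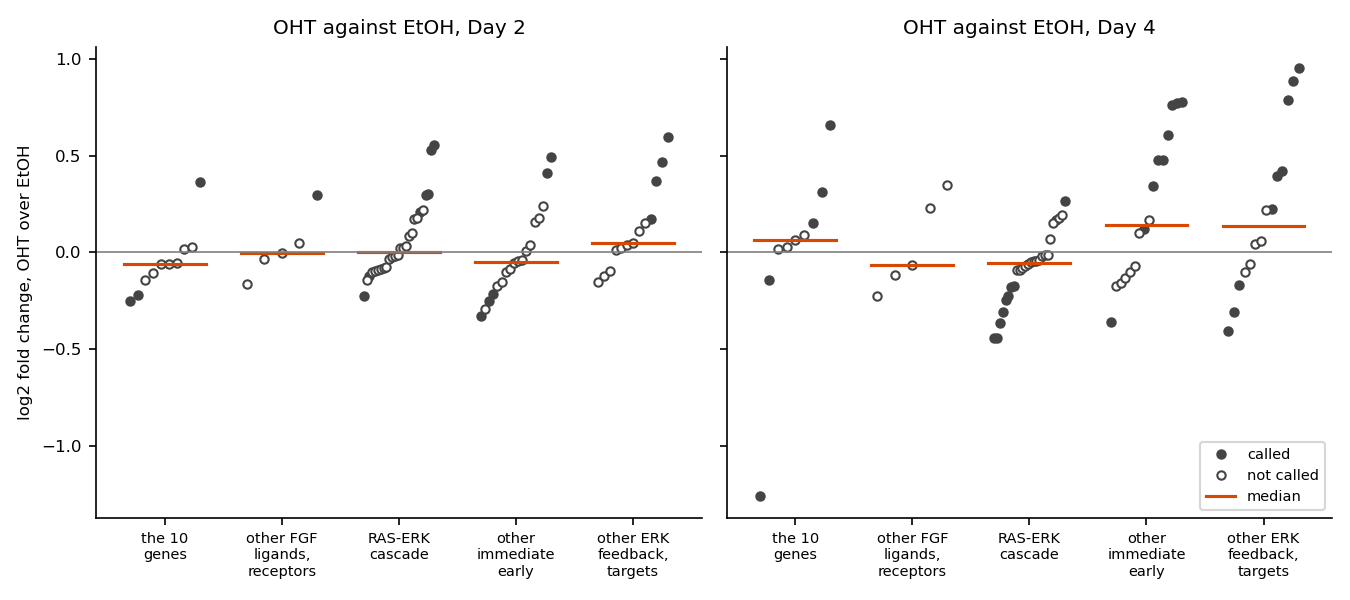
Log2 fold change of OHT over EtOH at Day 2 and Day 4 for the members and the 4 other lists, genes with a mean count above 100; filled points were called and lines are medians. The values farthest from 0 are at Day 4, *Dusp4* at 0.95 at the top and *Egr1* at -1.26 at the bottom (*Fos*, under the minimum at Day 4, is shown at Day 2 only).

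Heat shock genes, which respond to handling of cells, were read as a control list. Their summed TPM was 5498 to 5940 at Day 2 and 6051 to 6638 at Day 4. By mean count at Day 4, *Hspa8* (2.618e+05) and *Hsp90aa1* (3.023e+05) stood far above the rest of the list, of which *Hsph1* was highest at 7475. In OHT at Day 4 *Hspa8* was lower (-0.29) and *Hsp90aa1* higher (0.26). These genes were named after their values were seen. The sum thus hides changes of opposite sign and says little about the rest of the list, so that it is no test of handling. In OHT, 1 of 8 was called higher at Day 2, and 2 were higher and 4 lower at Day 4. Among the 10 mESC markers 2 were higher and 4 lower at Day 2, and 6 were higher and 1 lower at Day 4. Of all genes tested, 19.8% were called at Day 2 and 45.1% at Day 4. The markers' summed TPM at Day 4 was 2845 to 2954 in OHT against 2472 to 2755 in EtOH. The largest part of that difference was *Dppa5a* (mean 1436 against 1223 TPM, named after its values were seen). Mean TPM of *Pou5f1* (439 against 460), *Zfp42* and *Utf1* was lower in OHT, and that of the other markers was higher. The part of either list in the differences of the 10 genes was not tested.

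For each member, the gene most like it was taken by Pearson's r of log2(normalised count + 1) over the 12 libraries, among 11606 genes with a mean count above 100. The libraries fall into 4 groups, and each r rests mostly on the group means. *Dusp6* was followed most closely by *Cenpb* (r = 0.994), with group means of 1488 and 1478 at Day 2 and 1797 and 2484 at Day 4, EtOH first. *Egr1* had *Nin* (r = 0.968) and *Amot* (r = 0.964), and *Amot* was at 343 in Day 4 EtOH and 228 in Day 4 OHT. For *Fos* it was *Vegfa* (r = 0.987), at 2092 and 1842 at Day 2 and at 1099.6 and 941 at Day 4. *Spry2* was matched by *Cggbp1* (r = 0.994), *Spry4* by *Rbpj* (r = 0.971), *Etv4* by *Trim39* (r = 0.996), *Ier2* by *Ankrd35* (r = 0.990), *Fgf4* by *Tbc1d13* (r = 0.986) and *Etv5* by *Dcaf12* (r = 0.958). *Spred1* had no gene as close, its best being *Rrm2b* (r = 0.857).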

How the data were processed

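Total RNA libraries (TruSeq Stranded Total RNA, 3 per group) were sequenced in the study. Per the labels and the study's methods, the authors used STAR 2.6.0c for alignment (GRCm38.p6), RSEM for expected counts of GENCODE vM18 genes in each library, and DESeq2 1.22.2 for tests. The deposited expected counts share a read pair that maps to several genes among them. The deposited TPM values are scaled to each library and were used for levels, never for tests. The authors' tables of log2 fold changes, p-values and adjusted p-values were used for gene symbols only. The posterior SD of the counts, deposited with them, was 0 for 9 of the members and at most 5.8 counts for *Etv5*, so that few of their reads were shared with other genes.

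Samples were grouped by their titles. Expected counts were rounded and tested with DESeq2 1.42.0 (R 4.3.3) (Wald test, median-of-ratios size factors, independent filtering and unshrunken fold changes) on the 6 libraries of each comparison and on all 12 for the interaction. Confidence intervals of 95% are normal. The script was tested on simulated counts. Read pairs carried no molecular identifiers and are not independent molecules; the SD over libraries is the measure of error. In 12 of the 40 groups of member counts that SD was below the square root of the mean, the spread that counting alone gives.

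The members, the lists (written from general knowledge) and the tests were chosen with earlier results of these data known. Named genes are the 10 members, up to 3 called genes per side and list by Day 4 log2 fold change, the genes most like each member, and others said to be named after their values were seen. Positions are from GENCODE vM21, and promoter windows from RefSeq, both GRCm38. Alternatives were edgeR 4.0.16, TMM factors or library totals, effective length offsets, a loess correction for gene length per library (span 0.3), no minimum mean, adjustment above the minimum alone, the replicate number as a block, all 12 libraries in 1 fit, and each library left out. *Spry3* was not matched in the files.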

Additional observations from a re-analysis of the deposited data

Results flagged for a closer look

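The effect of OHT differed between Day 2 and Day 4 for 9 of the 10 genes, by the DESeq2 interaction over 12 libraries with adjustment over all genes. The same test was passed by 32.3% of all genes tested. The members and the tests were chosen with earlier results of these data known, so that the share of members called is no result in itself. On the log2 scale, the Day 4 effect minus the Day 2 effect was 0.634 for *Dusp6*, 0.567 for *Spry2*, 0.253 for *Ier2*, 0.218 for *Fgf4*, 0.199 for *Spred1* and 0.125 for *Etv4*. It was -1.197 for *Egr1*, -0.342 for *Spry4* and -0.153 for *Etv5*. For *Dusp6*, *Spry2*, *Ier2*, *Fgf4*, *Egr1*, *Spry4* and *Etv5* the call held in each of the 20 alternatives run. *Spred1* kept it in 16 and *Etv4* in 6. *Spry2* is the only gene of the 9 that was called on both days and in opposite directions.

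The named genes of the other pathway lists with a mean count above 100 at Day 4 were read in the same test. Of these, 13 had a called interaction, and *Myc*, *Dusp1* and *Ccnd1* had none. It was 0.1825 for *Map2k2*, 0.292 for *Map2k1*, 0.367 for *Ccn1*, 0.5856 for *Ccn2*, 0.7994 for *Dusp4*, 0.8384 for *Spred3* and 1.102 for *Jun*. It was -0.4069 for *Fgfr1*, -0.6103 for *Elk4*, -0.6457 for *Gab1*, -0.7696 for *Nf1*, -0.7708 for *Spred2* and -0.8893 for *Frs2*. The call of *Ccn1* held in 6 of 20 alternatives, that of *Map2k2* in 14 and that of *Spred3* in 19. Over all genes tested, 32.3% were called. The named genes were picked by their Day 4 effect, *Fgfr1* after its values were seen. That effect is part of the interaction, so that their share called is no result in itself.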

How the results depend on the processing

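Day 4 differences between the labels for *Fgf4*, *Dusp6*, *Spry2* and *Etv5*, and the Day 2 difference of *Spry4*, were called in each of the 15 alternatives run. At Day 2 the members called lower came to 1 instead of 2 with the replicate block and the length trend removed together (*Spred1*, as *Ier2* and *Spry2* both lost their calls), to 3 with the length trend alone removed (*Spred1* added), and to 1 to 2 with a library left out. The difference of *Ier2* was called in 14 of 15 alternatives and that of *Spry2* in 12. At Day 4 the members called lower were 1 to 2 with a library left out: without Day 4 EtOH replicate 1 or 3, *Egr1* kept a fold change of -1.26 or -1.19 (adjusted p = 1.2e-06 and 1.01e-05), but its mean fell under 100. From Day 2 to Day 4 in EtOH, members called lower came to 1 instead of 2, *Spred1* being lost, with library totals, effective length offsets, the replicate block, the block with the length trend removed, and most libraries left out (1 to 2). In OHT they came to 2 instead of 1 with no minimum mean and with all 12 libraries in 1 fit, and to 0 to 2 with a library left out, as *Fos* and *Egr1* crossed the minimum. Values that changed sign were all small and not called: at Day 2 *Etv5* at -0.0104 with the length trend removed, -0.0106 with the block as well and -0.0121 without Day 2 OHT replicate 3, *Dusp6* at -6.45e-05 without Day 2 EtOH replicate 2 and *Egr1* at 0.0397 without Day 2 OHT replicate 2, and at Day 4 *Ier2* at -0.00532 without Day 4 OHT replicate 1 and *Spry4* at -0.0667 without Day 4 OHT replicate 3. With a library left out, the range was -0.1863 to 0.0397 for *Egr1*, -6.45e-05 to 0.0440 for *Dusp6* and -0.0121 to 0.0342 for *Etv5* at Day 2, and -0.00532 to 0.0492 for *Ier2* and -0.0667 to 0.0707 for *Spry4* at Day 4. Alternatives for the named list genes with a mean count above 100 at Day 4 were chosen after seeing the data. Of these genes, *Spred3* at Day 2 (-0.0519 to 0.1718 with a library left out) and the interaction of *Ccnd1* (0.00255 with effective length offsets) changed sign, neither being called. The cause was not tested.

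Correlations of the deviations of same-numbered libraries ran from -0.385 to 0.285, and those of differently numbered ones from -0.366 to 0.377. With 3 libraries per group, these ranges cannot decide whether the numbers pair libraries, and the labels do not say. With the replicate block, the members called were 1 higher and 2 lower at Day 2 and 3 and 2 at Day 4, and over all genes the Day 2 calls went from 1068 higher and 1238 lower to 658 and 659, or 537 and 583 with the length trend removed too. Without Day 2 EtOH replicate 1 they were 615 and 586, and without its replicate 2 they were 697 and 710. *Fos* and *Egr1* at Day 4, at 25.7 to 164 normalised counts, are the genes nearest the minimum mean count, and their calls are limited by depth in that way.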
